A study of Mus musculus with 18 samples.

Results

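The 46 genes described here make, use and recycle glutathione, or belong to the detoxification genes that the transcription factor NRF2 is known for. They were taken by symbol from the 52636 genes of the count table, and each symbol matched 1 row. By role they are 18 glutathione S-transferases, 6 members of the glutathione peroxidase family, 4 enzymes of glutathione synthesis and recycling, NRF2 itself (Nfe2l2) with its sensor Keap1, 5 genes of the thioredoxin and peroxiredoxin system, 3 enzymes that supply NADPH, 5 quinone, carbonyl and heme enzymes, and catalase with 2 superoxide dismutases. RNA was sequenced from epidermal cells of C57BL/6 mice, sorted as EpCAM positive and CD45, CD140a and CD31 negative, in 6 groups of 3 samples. All mice carried loxP-flanked Zfp36, the gene of the mRNA-destabilizing protein tristetraprolin. The Zfp36 fl/fl mice were littermate controls with no deletion, and in the Zfp36 ΔK14 mice, called ΔEP here, a Cre driven by the human keratin 14 promoter removed Zfp36 from keratinocytes and other keratin 14-expressing epithelium, so the deletion was there before any treatment. For each genotype the cells came from mock-treated back skin of adult mice, from skin treated with the carcinogen DMBA and then repeatedly with the promoter TPA, and from papillomas that grew under that treatment. The labels call the treated cells tumoral, while the study's methods describe adjacent skin without tumor, and the source label reads whole skin, without a sort.

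Glutathione is a tripeptide that cells use as a reductant and as a handle for detoxification. The transferases join it to reactive chemicals, the peroxidases spend it on peroxides, and a reductase restores it with NADPH. In unstressed cells KEAP1 marks NRF2 for breakdown. Oxidants and electrophiles, which DMBA metabolism and TPA both give rise to in skin, modify KEAP1, and NRF2 then enters the nucleus and, paired with a small MAF protein, binds antioxidant response elements near its target genes. Much of this control acts on the NRF2 protein, so the Nfe2l2 transcript is an indirect measure of NRF2 activity.

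The core letters of the antioxidant response element, TGACNNNGC, were searched on both strands of RefSeq promoter windows of build GRCm38.p6, which run from 250 bases before to 50 bases after each annotated start. A window was given for 40 of the 46 genes and 11 of them (27.5%) held the letters, against 3781 of 27025 genes (14%) with a window. The stretches below are those of the 6 genes that hold the letters and were called higher in at least 2 of the 4 comparisons of tumors with skin described further on. They are written on the strand of the gene, and capitals mark the 9-base match, which reads TGAC first where it lies on the gene's strand and GTCA last where it lies on the other strand.
Srxn1: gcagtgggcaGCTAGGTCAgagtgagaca
Prdx1: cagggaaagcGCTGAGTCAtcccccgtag
Pgd: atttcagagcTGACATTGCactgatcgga
G6pdx: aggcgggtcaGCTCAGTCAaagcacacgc
Gclm: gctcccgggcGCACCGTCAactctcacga
Nfe2l2: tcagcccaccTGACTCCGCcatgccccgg

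The Srxn1 stretch lies at chr2:152105542-152105570 on the plus strand, with the match starting 28 bases after the annotated start, and the Pgd stretch at chr4:149166061-149166089 on the minus strand, with the match starting 3 bases after it. The other matches lie upstream, at chr4:116685456-116685484 on the plus strand for Prdx1 (133 bases before the start), chrX:74428919-74428947 on the minus strand for G6pdx (57 bases), chr3:122245413-122245441 on the plus strand for Gclm (134 bases) and chr2:75704885-75704913 on the minus strand for Nfe2l2 (240 bases). The windows of Gsta3, Gstm5, Me1, Sod1 and Txnrd1 also held the letters. In Prdx1 and Me1 the match overlaps TGACTCA, the letters that AP-1 factors bind, which stood in the windows of 15% of the 40 genes and of 5.95% of all genes with a window. With A or G required before the core letters, 4 of the 40 genes (10%) had a match, against 7.2% of all genes with a window. These were Gsta3, Me1, Prdx1 and Txnrd1, so of the stretches above only that of Prdx1 met the stricter form. A match describes letters in a short window, and elements farther away were not searched. No window was given for Gsta4, Gstt2, Gclc, Gsr, Prdx6 or Hmox1.

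Total counts ran from 2808550 to 9617985 per library. Columns 2 and 3 of mock ΔEP did not differ in any of the 52636 genes. Other pairs of columns within a group were equal in at most 28230 of these genes. With genes of few counts in the 2 columns together set aside, such pairs were equal in at most 2.17% of genes. Columns 2 and 3 of mock ΔEP entered as 1 library, which leaves 17 libraries with n = 2 for mock ΔEP and n = 3 elsewhere. Levels are counts per 1000000 (CPM) on library sizes scaled by trimmed mean of M-values. Zfp36 stood at 152 to 716 CPM in the 9 fl/fl libraries and at 10.1 to 38.6 CPM in the 8 ΔEP libraries. The summed level of 6 keratinocyte markers was 3270 to 30000 CPM, with none at 0 in any library. Of markers of cells the sort should remove, 6 leukocyte markers (Itgam with 2 rows in the table) summed to 3.51 to 19.1 CPM, 5 endothelial markers to 8.62 to 39.7 CPM and 3 muscle markers to 0 to 4.58 CPM. The 6 fibroblast markers summed to 377 to 1680 CPM in skin and 30.4 to 386 CPM in tumors, and the 4 melanocyte markers to 38.6 to 325 CPM and 8.85 to 35.3 CPM. The 6 hair follicle markers summed to 487 to 2660 CPM in skin and 428 to 826 CPM in tumors, and did not move together. Lhx2 stood at 9.67 to 57.1 CPM in skin and 0 to 3.36 CPM in tumors, and Lgr5 at 18.8 to 131 and 2.51 to 15.7 CPM. Sox9 stood at 65.8 to 179 CPM in skin and 255 to 674 CPM in tumors. Krt15, Krt75 and Cd34 overlapped between skin and tumors. Libraries that stand apart were replicate 1 of both mock groups, with keratinocyte marker sums of 3370 and 3270 CPM against 17400 to 20600 CPM in the other mock libraries, and replicate 1 of the fl/fl tumors, described with the tumors. In treated ΔEP skin the keratinocyte sums were 4640, 7670 and 20300 CPM and the melanocyte sums 325, 47.6 and 49 CPM. What part these marker levels have in the results below was not tested.

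In skin the 46 genes together took a small share of the counts and were led by peroxide-removing enzymes. Their counts made up 0.173% to 0.222% of a skin library and 0.303% to 0.483% of a tumor library. Per kilobase of exon, Gpx1, the main cytosolic glutathione peroxidase, was first in all 4 skin groups, at 138 ± 7.48 CPM per kb (SD, n = 3) in mock fl/fl, 190 ± 84.8 (n = 2) in mock ΔEP, 128 ± 21.6 in treated fl/fl and 147 ± 35.7 in treated ΔEP. Prdx1, a peroxiredoxin that thioredoxin recharges, came next at 85.1 to 105 CPM per kb in group means, and Txn1, thioredoxin itself, followed at 39.9 to 65.7 CPM per kb. The order changed in the tumors. Gsto1, the omega-class transferase that also reduces dehydroascorbate, was first in both tumor groups, at 291 ± 322 CPM per kb in fl/fl and 610 ± 86.3 in ΔEP. In the fl/fl tumors it was followed by Txn1 (232 ± 189), Prdx1 (224 ± 33.6), Gsta4 (222 ± 355) and Gpx1 (216 ± 121), 5 genes whose order the spread between libraries does not resolve. In the ΔEP tumors it was followed by Gpx1 (379 ± 44.1), Gsta4 (309 ± 69.2), Txn1 (254 ± 22.1) and Prdx1 (239 ± 21.8), of which only Gsto1 lay clear of the next gene by more than their SDs.

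Summed over the 46 genes, the level was 656, 679 and 650 CPM per kb in mock fl/fl replicates 1 to 3, 685 and 846 in mock ΔEP, 633, 721 and 600 in treated fl/fl, and 668, 674 and 859 in treated ΔEP. The tumors gave 3240, 1250 and 1360 CPM per kb in fl/fl and 2650, 2500 and 3010 in ΔEP. Every tumor library lay above every skin library, and replicate 1 of the fl/fl tumors lay with the ΔEP tumors rather than with replicates 2 and 3. The 18 transferases summed to 101 to 169 CPM per kb in skin, to 1440, 239 and 245 in the fl/fl tumors and to 1090, 846 and 1170 in the ΔEP tumors. Their make-up differed between skin and tumors. Gsta4, the alpha-class transferase with high activity towards the lipid peroxidation product 4-hydroxynonenal, held 0.59% to 2.35% of the transferase level in skin, 43.9%, 7.78% and 6.44% in the fl/fl tumors and 30.6%, 27.3% and 31.1% in the ΔEP tumors. Gsto1 held 19.1% to 35.1% in skin, 46.1%, 43.3% and 43.9% in the fl/fl tumors and 57.5%, 61% and 58.9% in the ΔEP tumors. The 6 mu-class genes, among them Gstm1 with 13.3% to 28.6% of the transferase level in skin, summed to 38.2 to 86.4 CPM per kb in skin and to 39.7 to 78.5 in tumors, a range inside that of skin.

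**Figure D1:**
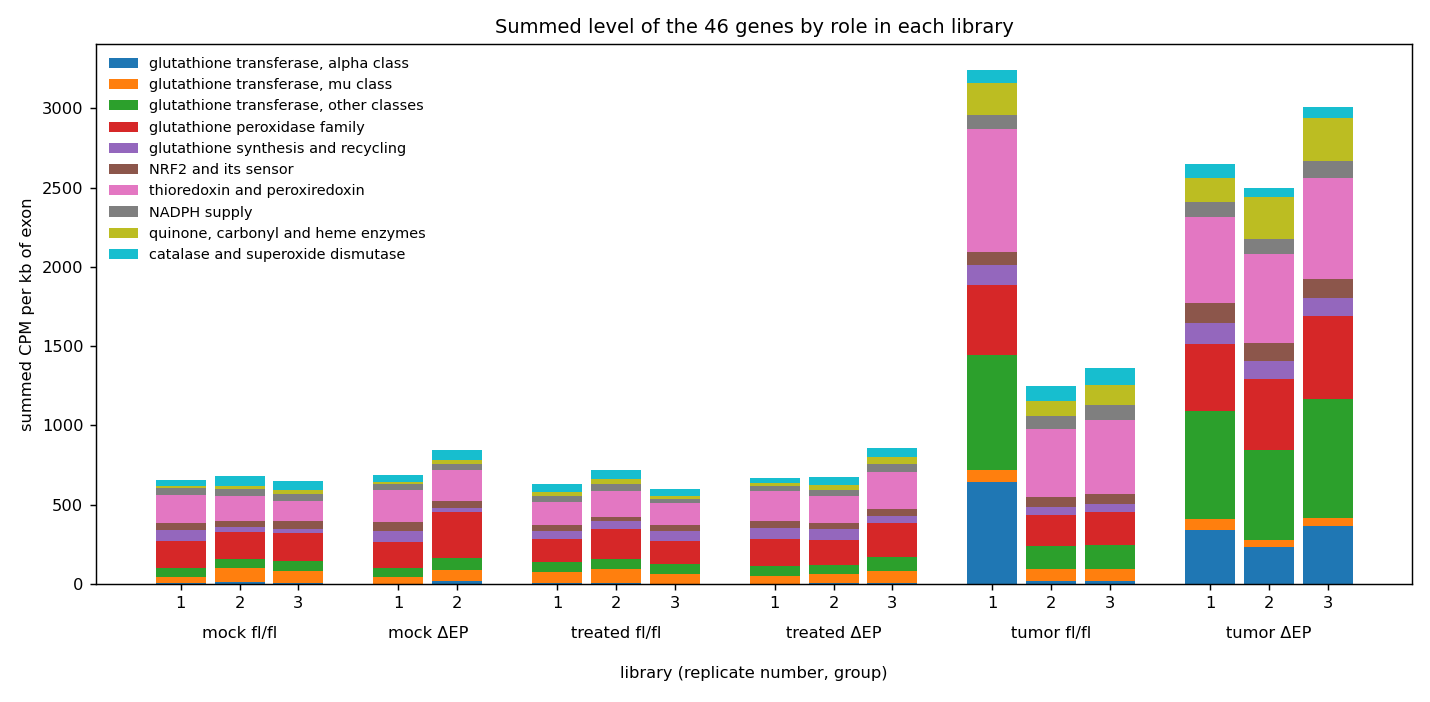
Summed level of the 46 genes in each of the 17 libraries, in CPM per kilobase of exon on a linear axis from 0, stacked by role, with libraries ordered by group and replicate number. The 11 skin libraries reach 600 to 859, the fl/fl tumors 3240, 1250 and 1360, and the ΔEP tumors 2500 to 3010, with transferases, peroxidases and the thioredoxin and peroxiredoxin genes as the thickest bands in tumors.

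Tumor cells carried more transcript of a large share of these genes than skin in both genotypes. A gene was called where edgeR's quasi-likelihood F test gave a Benjamini-Hochberg adjusted p under 0.05, over all genes tested in that comparison, and a fold change over 2. In fl/fl mice 7 of the 39 members tested were called higher in tumors than in mock skin and none lower, where 2.22% of all genes were called higher and 1.88% lower. Against treated skin 16 of 38 were higher and none lower, with 7.5% of all genes higher and 10.5% lower. In ΔEP mice 15 of 40 were higher and 1 lower against mock skin (all genes 7.05% and 7.22%), and 20 of 39 were higher and 1 lower against treated skin (all genes 10.5% and 15.5%). The median log2 fold change of the members tested was 0.77, 0.98, 0.86 and 1.16 in these 4 comparisons, and that of all genes −0.05, −0.02, −0.06 and −0.03. The comparisons within a genotype share the tumor libraries. The members were chosen with earlier results of these data known, so their shares beside those of all genes describe the list and do not test it.

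Akr1b8, Gpx2, Hmox1, Nqo1, Pgd, Prdx1 and Srxn1, 7 members, were called higher in all 4 comparisons. Against mock skin in fl/fl, only Hmox1 of these 7 stayed called whichever library was left out. In 3 of the 4 comparisons, G6pdx, Gsta4, Gsto1, Nfe2l2 and Txn1 were called higher, and in 2 Cbr3, Gclm, Gsr, Gstp1 and Prdx6. Gpx1, Gsta3, Gstp2, Sod1 and Sod2 were called higher in 1. In all, 22 of the 46 were called higher at least once, Gstm5 and Gstt3 were called lower once each, 17 were tested without a call and 5 had too few counts to be tested. The shares of all genes called in all 4 comparisons, or in at least 1, are not given here. These counts across comparisons therefore describe the list only. As a description without a test, in 15 of the 41 members that passed the filter on low counts (36.6%) every tumor library lay above every skin library, against 7.15% of all 18252 genes, and in none did every tumor library lie below, against 5.28%.

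**Figure D2:**
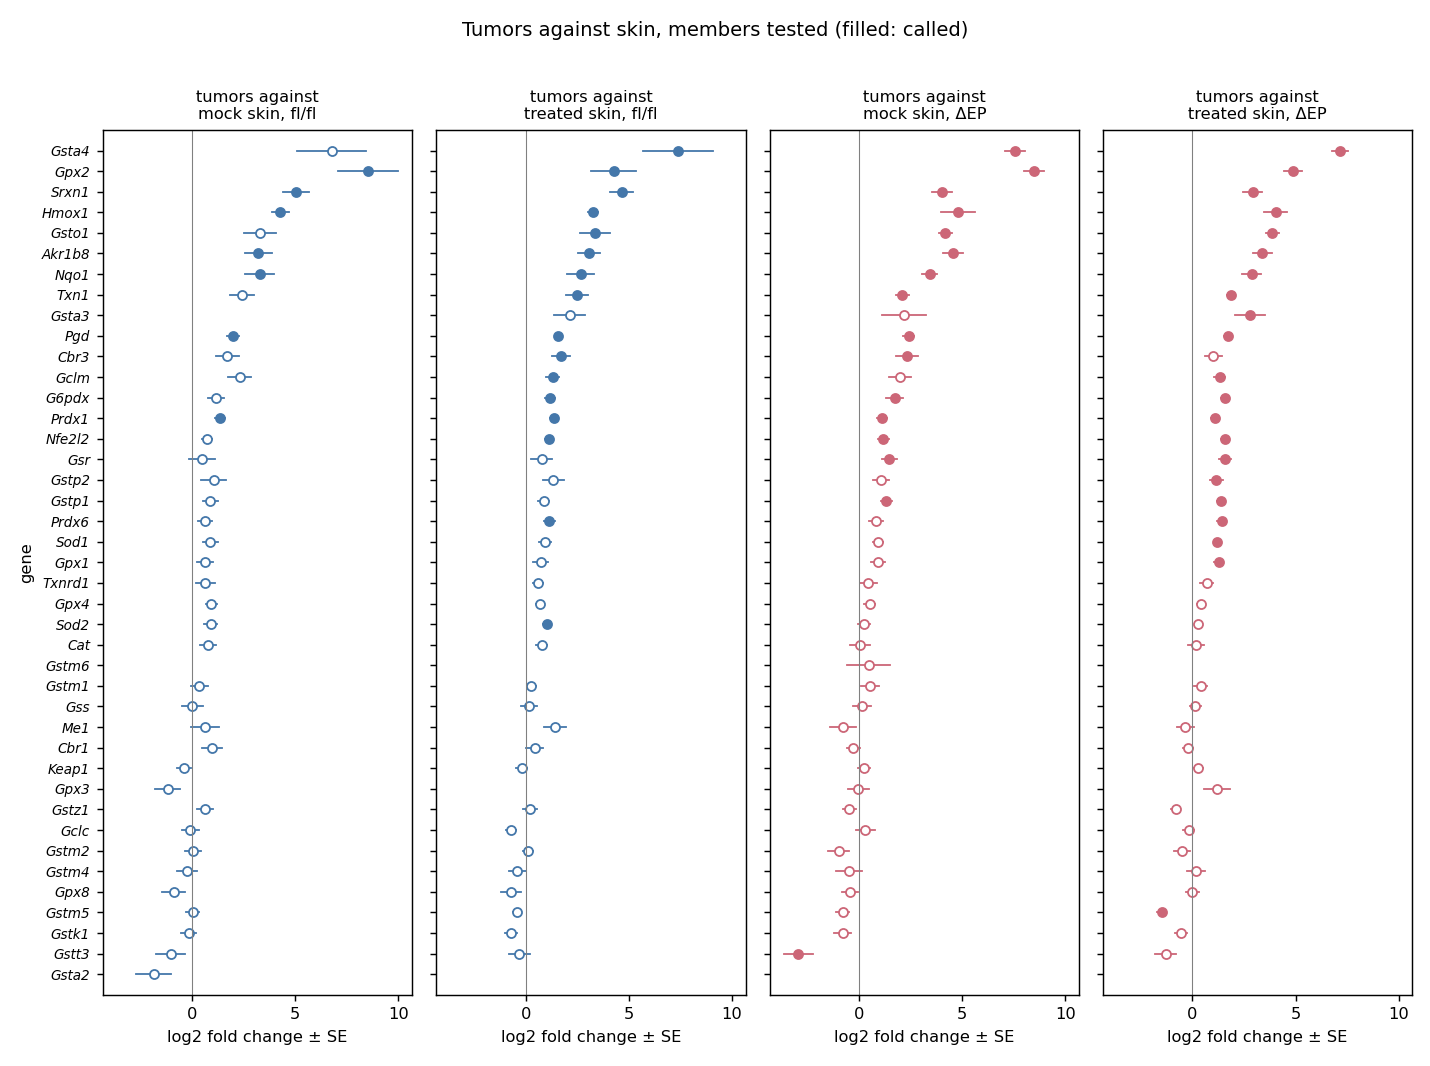
Log2 fold change of each member tested in the 4 comparisons of tumors with mock or treated skin, with bars for the standard error and filled points for members called. Gsta4 and Gpx2 reach changes between 4.27 and 8.52, while Gclc, Gss, Keap1 and the mu-class transferases lie between −1.49 and 0.53, and Gstm5 and Gstt3 are the only members called lower.

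Among the quinone, carbonyl and heme enzymes, 4 of 5 were called higher in at least 2 comparisons. Hmox1 (ENSMUSG00000005413, chr8:75093621-75100589, GRCm38), heme oxygenase 1, which opens the heme ring and releases iron, stood at 5.77, 2.95 and 2.9 CPM in mock fl/fl, 3.52 and 5.41 in mock ΔEP, 6.73, 8.55 and 8.63 in treated fl/fl and 7.18, 7.96 and 7.1 in treated ΔEP. Its tumor levels were 61.2, 79.1 and 93.4 CPM in fl/fl and 40, 231 and 126 in ΔEP. No tumor library came near the skin libraries, and the ΔEP tumors were the more spread. The log2 fold change of Hmox1 was 4.28 ± 0.41 (SE, adjusted p = 0.00671) against mock and 3.27 ± 0.25 (0.00102) against treated skin in fl/fl, and 4.80 ± 0.84 (0.0192) and 4.04 ± 0.57 (0.00157) in ΔEP.

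Nqo1 (chr8:107388225-107403206), the quinone reductase most used as a readout of NRF2, stood at 3.41 to 16.4 CPM in skin, at 111, 16.2 and 38.7 CPM in the fl/fl tumors and at 63.3, 65.7 and 102 CPM in the ΔEP tumors. Replicate 2 of the fl/fl tumors was level with the highest skin library, replicate 3 of treated ΔEP skin, and all other tumors were above it. Its log2 fold change was 3.28 ± 0.70 (adjusted p = 0.0467) and 2.67 ± 0.66 (0.0243) in fl/fl and 3.42 ± 0.36 (0.00647) and 2.87 ± 0.46 (0.0024) in ΔEP, against mock and treated skin in that order, as in all such lists below. Akr1b8, an aldo-keto reductase that clears reactive aldehydes, stood at 3 to 19.4 CPM in skin, 112, 32.1 and 30.5 CPM in the fl/fl tumors and 104, 108 and 172 CPM in the ΔEP tumors. Every tumor was above every skin library, and its changes were 3.21 ± 0.65 (adjusted p = 0.0411), 3.08 ± 0.54 (0.00784), 4.54 ± 0.48 (0.00647) and 3.38 ± 0.46 (0.00138). Against mock skin in fl/fl, the calls of Nqo1 and Akr1b8 were each lost in 5 of the 6 fits that leave out 1 library. Cbr3, a carbonyl reductase, was called against treated skin in fl/fl (1.72 ± 0.44, 0.0272) and against mock skin in ΔEP (2.33 ± 0.52, 0.0331). Its relative Cbr1 was called in neither genotype.

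In the thioredoxin and peroxiredoxin system 2, 4, 3 and 4 of 5 members were called higher. Srxn1 (chr2:152105516-152111376), sulfiredoxin, which repairs overoxidized peroxiredoxins, stood at 3.61 to 12.7 CPM over the 11 skin libraries. The fl/fl tumors held 56.7, 197 and 247 CPM and the ΔEP tumors 45.4, 104 and 88.9. Here replicate 1 of the fl/fl tumors was the low library of its group, and replicates 2 and 3 were above every ΔEP tumor. Its changes were 5.04 ± 0.62 (adjusted p = 0.0113), 4.65 ± 0.56 (0.00246), 4.01 ± 0.49 (0.00858) and 2.93 ± 0.46 (0.00227). Prdx1 had among the tightest tumor levels, at 800, 620 and 626 CPM in fl/fl and 712, 668 and 798 in ΔEP, against 219 to 397 CPM in skin. Groups did not overlap, and its changes were 1.36 ± 0.25 (adjusted p = 0.0316), 1.37 ± 0.18 (0.00322), 1.12 ± 0.25 (0.035) and 1.09 ± 0.19 (0.00362). Its fl/fl call against mock skin was lost in 5 of the 6 fits that leave out 1 library. Its ΔEP call against mock skin was lost without any 1 of the 3 tumors. Txn1 stood at 29.9 to 76.9 CPM in skin, 473, 116 and 144 CPM in the fl/fl tumors and 254, 252 and 293 CPM in the ΔEP tumors. It was called against treated skin in fl/fl (2.5 ± 0.52, adjusted p = 0.0139) and against both in ΔEP (2.10 ± 0.32, 0.0132, and 1.86 ± 0.17, 0.000282), and gave 2.43 ± 0.58 (0.0581) against mock skin in fl/fl. The fl/fl call was lost without any 1 of the 3 treated libraries (adjusted p up to 0.0682). The ΔEP call against mock skin was lost without any 1 of the 3 tumors. Prdx6, a peroxiredoxin that uses glutathione, was called only against treated skin, at 1.15 ± 0.25 (0.0154) in fl/fl and 1.41 ± 0.23 (0.00284) in ΔEP. Txnrd1, the reductase that recharges thioredoxin, stood at 39.7 to 136 CPM in skin and 83.3 to 196 CPM in tumors and was called in none.

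Of the transferases, Gsta4 and Gsto1 moved farthest. Gsta4 (ENSMUSG00000032348, chr9:78182774-78209349, plus strand) stood at 0.915 to 4.71 CPM over the 11 skin libraries, where mock and treated skin overlapped. The fl/fl tumors held 800, 23.5 and 20 CPM and the ΔEP tumors 422, 292 and 459. Replicate 1 of the fl/fl tumors was the highest of all libraries, and replicates 2 and 3 lay above all skin and below all ΔEP tumors. In ΔEP the change was 7.58 ± 0.48 (adjusted p = 0.00396; ratio of mean CPM 202) and 7.16 ± 0.38 (0.000165; ratio 155), in fl/fl 7.41 ± 1.70 (0.0192) against treated skin and 6.76 ± 1.67 (0.0628) against mock skin, the last not called. Without replicate 1 the change of Gsta4 against treated fl/fl skin was 3.78 ± 0.38 (adjusted p = 0.000331). This call was lost without any 1 of the 3 treated fl/fl libraries (adjusted p up to 0.0875), and DESeq2 did not make it. Gsto1 (chr19:47854970-47864790, plus strand) stood at 47.9 to 120 CPM in skin, 1340, 209 and 218 CPM in the fl/fl tumors and 1270, 1040 and 1390 CPM in the ΔEP tumors. Here fl/fl replicate 1 lay within the range of the ΔEP tumors, and replicates 2 and 3 lay between skin and the ΔEP tumors. Its changes were 3.29 ± 0.76 (adjusted p = 0.0545, not called), 3.38 ± 0.73 (0.0161), 4.19 ± 0.33 (0.00461) and 3.87 ± 0.32 (0.000207), and 1.94 ± 0.16 (0.000154) against treated fl/fl skin without fl/fl tumor replicate 1. The call of Gsto1 against treated fl/fl skin was also lost without any 1 of the 3 treated libraries (adjusted p up to 0.0772).

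The other transferases divided by class. Gstp1, the pi-class enzyme that is abundant in many epithelia, stood at 19.2 to 32.2 CPM in skin, 63.7, 39.7 and 34.7 CPM in the fl/fl tumors and 57.7, 67.3 and 75 CPM in the ΔEP tumors. Groups did not overlap, and it was called in ΔEP at 1.32 ± 0.26 (adjusted p = 0.0246) and 1.38 ± 0.21 (0.00213). Of its transcript's 50-base words 33.7%, and of those of its neighbour Gstp2 54.3%, also occur in other genes, so the split of reads between these copies is uncertain. The low alpha-class gene Gsta3 and Gstp2 were called only in ΔEP tumors against treated skin (2.79 ± 0.71, 0.0162, and 1.16 ± 0.30, 0.0173). No mu-class gene was called higher in any of the 4 comparisons. Gstm5 stood at 28.7, 32.6 and 29.9 CPM in treated ΔEP skin and 11.2, 9.62 and 13.9 CPM in ΔEP tumors, and every tumor lay below every treated library (−1.49 ± 0.21, 0.00166). Its exons overlap 4933431E20Rik on the other strand, and the sources used here do not say whether counting used strand. Gstt3, a theta-class enzyme, was called lower in ΔEP tumors against mock skin (−2.94 ± 0.72, 0.0409), from 4.6 and 26.7 CPM to 2.46, 2.18 and 1.71. The change was −1.12 without mock ΔEP replicate 2, the higher of the 2 mock libraries, and the call was also lost without any 1 of the 3 tumors. Gstz1, a zeta-class enzyme of tyrosine breakdown, fell by less than 2-fold against treated skin in ΔEP (−0.82 ± 0.21, 0.0163).

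**Figure D3:**
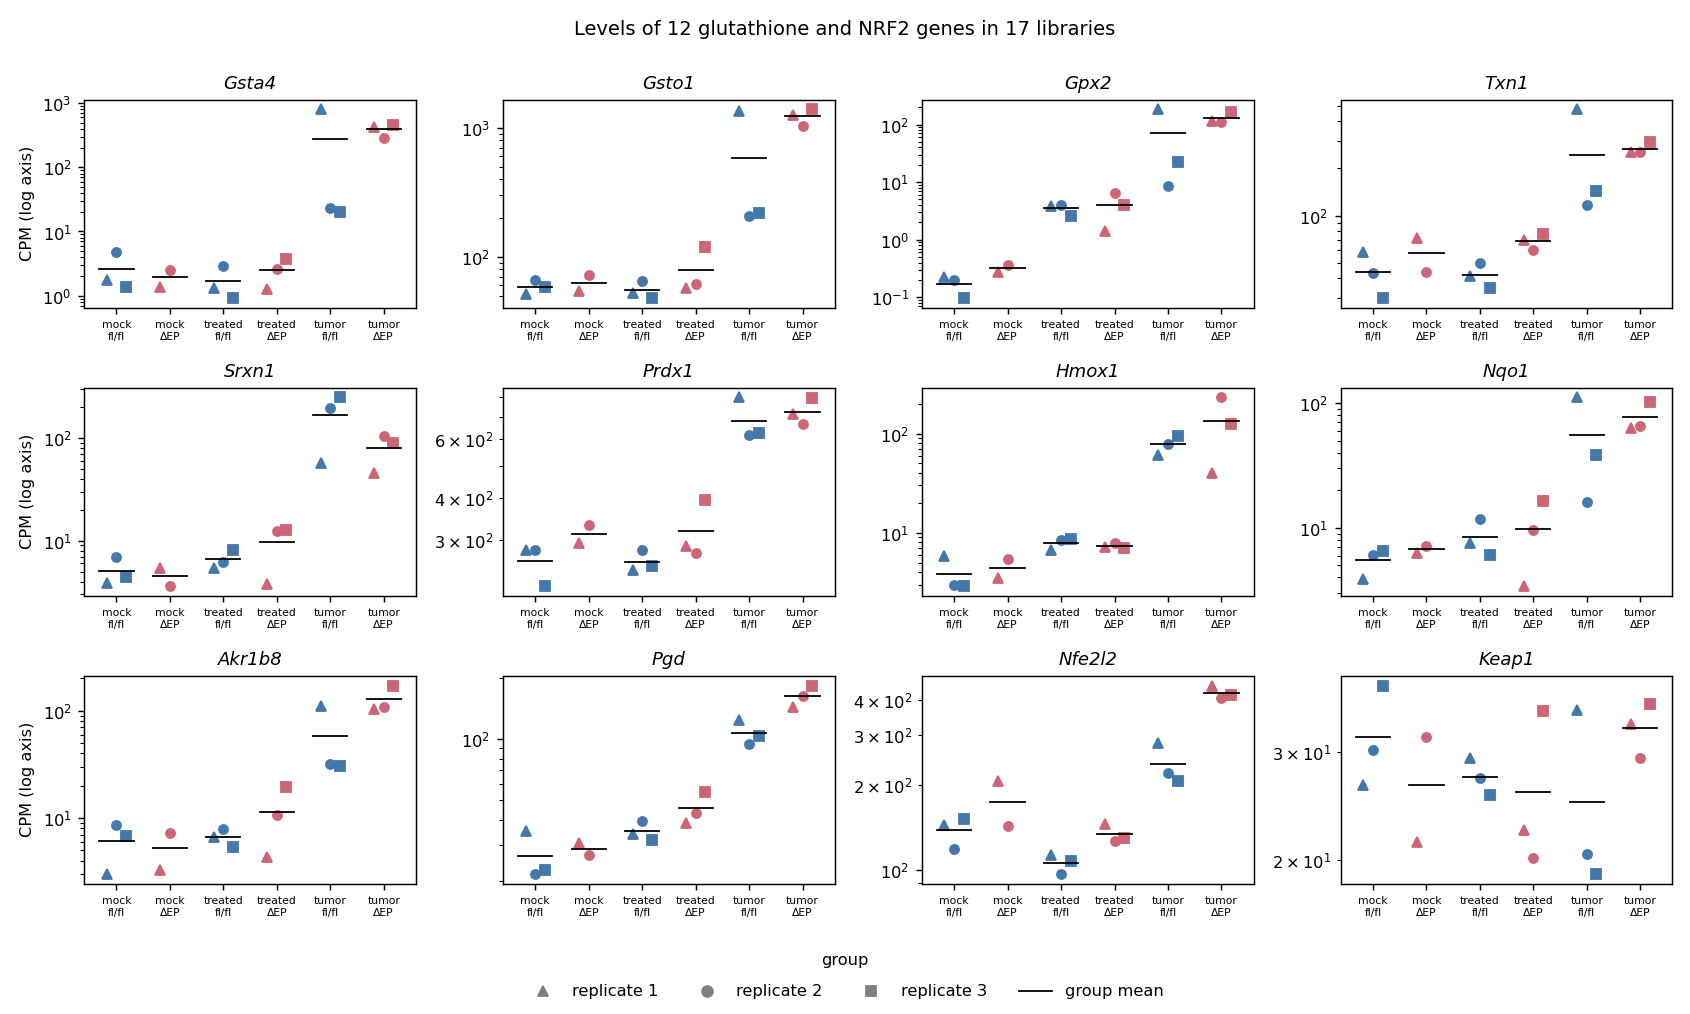
CPM on a log axis of 12 members in the 17 libraries by group, with blue for fl/fl, red for ΔEP, symbols for the replicate number and a line for the group mean. For Gsta4, Gsto1, Gpx2 and Txn1 the triangle of fl/fl tumor replicate 1 lies with or above the 3 ΔEP tumors while replicates 2 and 3 lie between skin and ΔEP tumors, Srxn1 has the opposite order, and Keap1 shows no separation of tumors from skin.

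In the peroxidase family the largest change was that of Gpx2, a selenium enzyme best known from gut and other epithelia and an NRF2 target (chr12:76792333-76795554, minus strand). It was at 1 or 2 counts in each mock library. The treated skin held 3.91, 3.95 and 2.61 CPM in fl/fl and 1.44, 6.4 and 4.06 in ΔEP, the fl/fl tumors 183, 8.4 and 22.6, and the ΔEP tumors 113, 112 and 165. The 3 stages did not overlap in either genotype. Against a floor of 3 counts per mock library, Gpx2 was at least 176-fold higher in fl/fl tumors (adjusted p = 0.0275) and at least 137-fold higher in ΔEP tumors (0.00356). Without tumor replicate 1 the bound in fl/fl was 38.4-fold (adjusted p = 0.0164), and the call was lost without mock replicate 2 (0.121), mock replicate 3 (0.113) or tumor replicate 3 (0.0668). Against treated skin its change was 4.27 ± 1.09 (0.0268) in fl/fl and 4.88 ± 0.44 (0.000305) in ΔEP, and 2.08 ± 0.44 (0.00757) in fl/fl without tumor replicate 1. Gpx1 stood at 514, 204 and 218 CPM in the fl/fl tumors and 495, 526 and 617 in the ΔEP tumors, against 166 to 360 CPM in skin, and was called only in ΔEP against treated skin (1.27 ± 0.20, 0.00235). Gpx4, which removes lipid hydroperoxides from membranes, lay at 48.3 to 69.9 CPM in tumors, above 28.3 to 44.1 CPM in skin, and was called in none. Gpx3, the secreted form, and Gpx8, a peroxidase of the endoplasmic reticulum, were not called either.

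Synthesis and recycling of glutathione changed in some steps and not in others. Gclm, the modifier subunit of the rate-limiting glutamate-cysteine ligase, stood at 20.7 to 96.3 CPM in skin, 304, 155 and 148 CPM in the fl/fl tumors and 284, 166 and 184 CPM in the ΔEP tumors. Every tumor lay above every skin library, and it was called against treated skin at 1.32 ± 0.31 (adjusted p = 0.0212) in fl/fl and 1.33 ± 0.27 (0.00623) in ΔEP. Against mock skin, where replicate 1 of each genotype held 72.9 and 75.8 CPM and the others 20.7 to 25.2, it gave 2.31 ± 0.56 (0.0606) and 1.97 ± 0.53 (0.0526). The catalytic subunit Gclc, at 31 to 118 CPM in skin and 51.3 to 107 CPM in tumors, and the synthase Gss, at 9.73 to 23.6 and 9.47 to 25.1 CPM, were called in none. Gsr, glutathione reductase, was at 150, 42.5 and 33.1 CPM in the fl/fl tumors and 174, 166 and 172 CPM in the ΔEP tumors, against 30.8 to 87.6 CPM in skin. Again fl/fl replicate 1 lay with the ΔEP tumors while replicates 2 and 3 lay within the skin range, and Gsr was called in ΔEP only (1.47 ± 0.38, 0.0462, and 1.59 ± 0.29, 0.00423).

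Of the 3 enzymes that supply NADPH, Pgd was called higher in all 4 comparisons, G6pdx in 3 and Me1 in none. Pgd, 6-phosphogluconate dehydrogenase of the oxidative pentose phosphate pathway, stood at 21.6 to 54.8 CPM in skin, 124, 94.7 and 103 CPM in the fl/fl tumors and 143, 162 and 183 CPM in the ΔEP tumors. All tumors lay above all skin, and its changes were 1.98 ± 0.30 (adjusted p = 0.0201), 1.58 ± 0.18 (0.00224), 2.40 ± 0.27 (0.00709) and 1.74 ± 0.19 (0.000521). G6pdx, the enzyme at the pathway's entry, was at 172, 95.3 and 113 CPM and 189, 176 and 198 CPM in the tumors against 29.6 to 84.9 CPM in skin. It was called against treated skin in fl/fl (1.18 ± 0.24, 0.0137) and against both in ΔEP (1.73 ± 0.42, 0.0415, and 1.56 ± 0.19, 0.000859), and its exons overlap Ikbkg on the other strand. The G6pdx call in fl/fl was lost without any 1 of the 3 treated libraries and without tumor replicate 1, with changes of 0.91 to 1.36 on leaving out 1 library. Me1, cytosolic malic enzyme, stood at 36.1, 139 and 170 CPM in the fl/fl tumors and 26.8, 43.4 and 46.5 CPM in the ΔEP tumors against 18.7 to 109 CPM in skin. Without fl/fl tumor replicate 1 it was called higher against treated fl/fl skin (1.83 ± 0.28, adjusted p = 0.00185).

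Nfe2l2 (chr2:75675513-75704641, minus strand) stood at 144, 119 and 152 CPM in mock fl/fl, 206 and 143 in mock ΔEP, 113, 96.7 and 108 in treated fl/fl and 146, 127 and 130 in treated ΔEP. The tumors held 282, 221 and 206 CPM in fl/fl and 449, 405 and 417 in ΔEP. The ΔEP tumors were the highest 3 libraries, and the fl/fl tumors lay above treated skin, with replicate 3 level with the highest mock library. Nfe2l2 was called higher against treated skin in fl/fl (1.12 ± 0.19, adjusted p = 0.00672) and in ΔEP (1.56 ± 0.17, 0.000521), and against mock skin in ΔEP (1.18 ± 0.28, 0.0382) but not in fl/fl (0.73 ± 0.25, 0.117). Without fl/fl tumor replicate 1 the change in fl/fl against treated skin was 0.99, just under 2-fold, and the call in ΔEP against mock skin was lost without any 1 of the 3 ΔEP tumors. Keap1 (chr9:21229730-21239361, minus strand) stood at 20.2 to 38.5 CPM in skin and 19 to 35.9 CPM in tumors, with changes of −0.40 ± 0.33 (0.485), −0.19 ± 0.26 (0.616), 0.22 ± 0.29 (0.631) and 0.26 ± 0.23 (0.398). Of catalase and the superoxide dismutases, Sod1, the cytosolic copper and zinc enzyme, was called in ΔEP against treated skin (1.21 ± 0.17, 0.00156) and Sod2, the mitochondrial enzyme, in fl/fl against treated skin (1.03 ± 0.18, 0.00791). Cat, catalase, stood at 41.3 to 127 CPM in skin and 75.1 to 211 CPM in tumors and was called in none.

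The counts of calls in fl/fl tumors against mock skin depended on single libraries. Without mock fl/fl replicate 1 there were 17 members called, with 21% of all genes called in that fit. Without mock replicate 2 or 3 there was 1 (Hmox1), with 0.181% and 0.31% of all genes. Without tumor replicate 2 or 3 there were 2 members, with 0.492% and 0.406% of all genes, and without tumor replicate 1 there were 6, with 3.65%. Against treated fl/fl skin, 7, 8 and 7 members were called without treated replicate 1, 2 or 3, with 7.21%, 8.91% and 9.91% of all genes, and Hmox1, Pgd, Srxn1, Prdx1 and Akr1b8 remained called whichever of the 6 libraries was left out. In ΔEP tumors against mock skin 8, 5 and 7 members were called without tumor replicate 1, 2 or 3, with 2.75%, 0.709% and 1.51% of all genes, and Gpx2, Gsta4, Gsto1, Nqo1 and Akr1b8 remained called in these 3 fits. The fits without mock ΔEP replicate 1 or 2 called 21 and 20 members and 28.1% and 22% of all genes, but they leave 1 mock library, which is then assumed to vary like the tumors. With the replicate number as a block 10 were called there, and the share of all genes in that fit is not given here. Against treated ΔEP skin 19 to 22 were called, with 17.5% to 29.2% of all genes.

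In a wider list of 107 genes of the same pathways that are not among the 46, 106 were in the table. In fl/fl tumors 5 were called higher and 1 lower of 90 tested against mock skin (all genes 2.22% and 1.88%). Against treated skin 14 were called higher and 7 lower of 91 (all genes 7.5% and 10.5%). In ΔEP tumors the counts were 14 and 5 of 91 (all genes 7.05% and 7.22%), and 21 and 9 of 91 (10.5% and 15.5%). In each comparison the share called lower was below that of all genes. Higher in all 4 comparisons were Glrx, the glutaredoxin that removes glutathione from proteins (3.42 ± 0.39, adjusted p = 0.00954, and 3.03 ± 0.34, 0.00189, in fl/fl, and 2.72 ± 0.50, 0.0208, and 1.92 ± 0.23, 0.000845, in ΔEP), Abcc3, an exporter of conjugates, and Duox1, which makes hydrogen peroxide. Slc7a11, the cystine importer that feeds glutathione synthesis, was called in ΔEP only (5.04 ± 0.73, 0.0124, and 3.31 ± 0.31, 0.000323), as were Glo1, a glutathione-dependent glyoxalase (1.76 ± 0.26, 0.0126, against mock), and the ferritin light chain Ftl1 (1.91 ± 0.28, 0.0126, against mock). With all libraries no gene of this list was called between the genotypes or in a difference of differences, so calls in ΔEP only are not shown to be particular to it. Esd, which hydrolyses formylglutathione, gave 2.61 ± 0.30 (0.00749) and 2.60 ± 0.18 (0.000165) in ΔEP and was called against treated skin in fl/fl (1.80 ± 0.54, 0.0456). The ferritin heavy chain Fth1 was called against treated skin in both genotypes (1.29 ± 0.32, 0.0258, and 2.11 ± 0.21, 0.000444).

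Genes of the wider list that fell include Txnip, which binds and inhibits thioredoxin. Its change was −5.08 ± 0.83 (adjusted p = 0.0243) and −4.10 ± 0.37 (0.00119) in fl/fl and −4.84 ± 0.82 (0.0177) and −3.35 ± 0.43 (0.00111) in ΔEP. Bach2, a repressor that competes for MAF partners, fell in ΔEP (−3.38 ± 0.63, 0.022, and −3.59 ± 0.43, 0.000829), as did Nfe2l3, a relative of NRF2 (−1.72 ± 0.40, 0.0369, and −2.70 ± 0.31, 0.000702), and Akr1c18 (−4.79 ± 1.12, 0.0378, against mock). Ggt1, which breaks down glutathione outside the cell, fell against treated skin in fl/fl (−5.24 ± 0.59, 0.00191) and in ΔEP (−4.02 ± 0.68, 0.003). Sesn1 and Sesn3, stress-induced sestrins, and Oplah, 5-oxoprolinase, fell against treated skin in both genotypes, Oplah by 1.14 ± 0.21 (0.00888) and 1.47 ± 0.20 (0.00132). Among regulators that rose against treated skin were Sqstm1, which draws KEAP1 away from NRF2 (1.67 ± 0.17, 0.00147, in fl/fl and 2.61 ± 0.33, 0.00109, in ΔEP), and Mafk, a small MAF partner (1.32 ± 0.20, 0.00514, and 1.46 ± 0.21, 0.00186). In fl/fl, Gstp3 also rose against mock skin (3.62 ± 0.64, 0.0288).

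Between mock skin and skin treated with DMBA and TPA, no member passed the threshold in the quasi-likelihood test of all libraries, in either genotype. No other gene tested passed it either, so this does not show that the treatment left the members unchanged. In fl/fl skin 0 of 40 members were called between treated and mock by edgeR's quasi-likelihood test, 5 members and 5.5% of all genes had an unadjusted p under 0.05, and 0% of all genes were called, while DESeq2 and edgeR's exact test each called 1 member. The shares of all genes that those other tools called are not given here. The member closest to a call was Gpx2, at 2, 1 and 1 counts in the mock libraries and 36, 18 and 20 in the treated ones. It was at least 8.64-fold higher against the floor of 3 counts per library (adjusted p = 0.0844), and the groups did not overlap. Gpx3 gave −1.28 ± 0.41 (adjusted p = 0.804), Gsta2 −1.92 ± 0.62 (0.806), Hmox1 1.03 ± 0.36 (0.849), Gstk1 0.55 ± 0.23 (0.888), Nfe2l2 −0.37 ± 0.17 (0.888) and Keap1 −0.20 ± 0.20 (0.931). Mock fl/fl replicate 1 decided this count. Without it 8 members were called and 15.1% of all genes: Gpx2 (4.59 ± 0.63, adjusted p = 0.00346), Gclm (1.82 ± 0.21, 0.00208), Hmox1 (1.47 ± 0.28, 0.0109) and Gclc (1.22 ± 0.24, 0.0121) higher, and Gsta2 (−2.29 ± 0.49, 0.0163), Gpx3 (−1.55 ± 0.35, 0.0192), Me1 (−1.21 ± 0.28, 0.0209) and Gstt3 (−1.11 ± 0.23, 0.0144) lower. For Gclc, mock fl/fl replicates 1 to 3 held 98.3, 43.8 and 36.6 CPM and treated fl/fl skin 87.1, 69.3 and 118. Replicate 1 lay within the treated range and the other mock libraries below it.

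In ΔEP skin 0 of 38 members were called between treated and mock, 2 members and 4.8% of all genes had an unadjusted p under 0.05, and DESeq2 and edgeR's exact test also called 0. Gpx2 was again first, at 1 and 1 counts in mock and 8, 49 and 24 in treated skin, at least 4.19-fold higher (adjusted p = 0.721). Gstm5 gave 0.69 ± 0.27 (adjusted p = 0.99). Pgd gave 0.65 ± 0.28, Gstt3 −1.68 ± 0.82, Hmox1 0.74 ± 0.39, Nfe2l2 −0.38 ± 0.27 and Keap1 −0.04 ± 0.36, each with an adjusted p of 1.

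Between the genotypes no member was called in mock skin, in treated skin or in tumors. In mock skin 0 of 39 members and 0% of all genes were called, 0 members and 1.59% of all genes had an unadjusted p under 0.05, and DESeq2 and edgeR's exact test also called 0. The smallest p-values were those of Gpx1 (0.46 ± 0.36, ΔEP against fl/fl), Gstk1 (0.44 ± 0.35), Nfe2l2 (0.33 ± 0.29), Txnrd1 (0.63 ± 0.62) and Prdx1 (0.27 ± 0.28), and Keap1 gave −0.25 ± 0.32, all with an adjusted p of 1. In treated skin 0 of 38 members were called, 2 members and 5.55% of all genes had an unadjusted p under 0.05, 0.00616% of all genes were called, and both other tools called 0 members. Txn1 held 41.4, 49.8 and 34.6 CPM in fl/fl and 70, 60.2 and 76.9 CPM in ΔEP, groups that did not overlap (0.70 ± 0.18, unadjusted p = 0.00424, adjusted p = 0.835). Gstm4 gave −0.79 ± 0.28 (0.897), Nfe2l2 0.32 ± 0.15 (0.904), Sod2 0.30 ± 0.15 (0.904), Pgd 0.35 ± 0.18 (0.904) and Keap1 −0.11 ± 0.22 (0.966). Zfp36 itself, for scale, gave −4.13 in mock skin (adjusted p = 1), −3.99 in treated skin (0.0391) and −4.10 in tumors (0.00882). The mock comparison did not call even the deleted gene, so the absence of calls there does not show equal levels.

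In tumors 0 of 39 members were called between the genotypes, where 0.0284% of all genes were. An unadjusted p under 0.05 was found for 11 members, 2 higher in ΔEP and 9 lower, and for 14% of all genes. DESeq2 and edgeR's exact test each called 2 members, Gstm5 and Me1, both lower in ΔEP. The shares of all genes that these 2 tools called are not given here. Their calls therefore cannot be told apart from a general change in calls. Gstm5 held 19.1, 26.4 and 23.9 CPM in fl/fl and 11.2, 9.62 and 13.9 CPM in ΔEP tumors (−1.15 ± 0.26, unadjusted p = 0.00207, adjusted p = 0.185). Nfe2l2, with the values given above, was 0.71 ± 0.19 higher in ΔEP (adjusted p = 0.221), and Gstz1, at 13.5, 23.2 and 36.7 CPM against 10.7, 9.44 and 12.7, was −1.31 ± 0.37 (0.232). In each of these the groups did not overlap, and the difference did not pass the test over all genes. Me1 gave −1.72 ± 0.51 (0.243) with overlapping groups, Gstm2 −0.99 ± 0.32 (0.255) and Keap1 0.29 ± 0.27 (0.664). In 5 members every ΔEP tumor lay above every fl/fl tumor (Nfe2l2, Pgd, G6pdx, Gsr and Gclc) and in 4 below (Gstm5, Sod2, Gstz1 and Gstm2), where 13.6% and 4.23% of all genes tested did so.

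**Figure D4:**
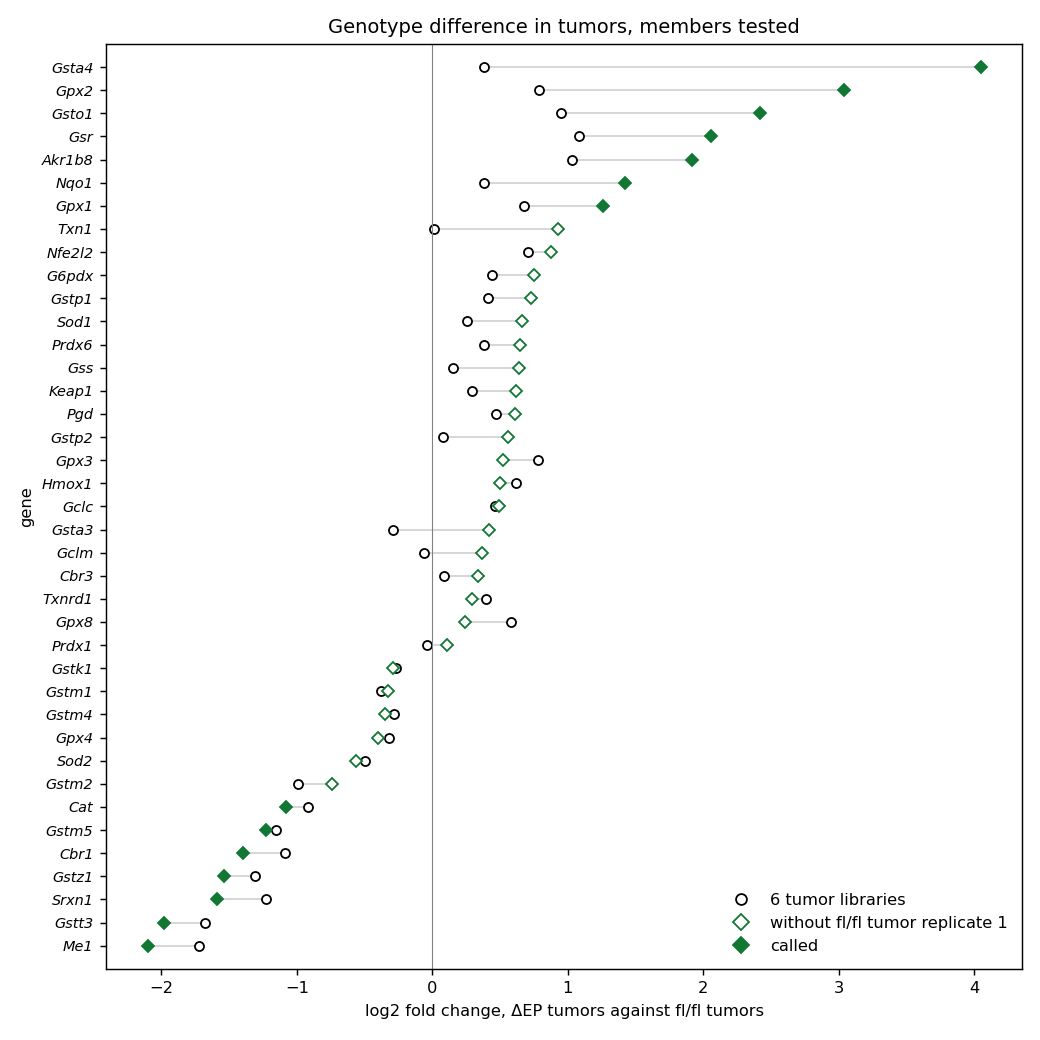
Log2 fold change of ΔEP against fl/fl tumors for the members tested, from all 6 tumor libraries and again without fl/fl tumor replicate 1. With all libraries no member is called, and without replicate 1 the points of 14 members are called, with Gsta4 (4.05), Gpx2 (3.04) and Gsto1 (2.42) at the higher end and Me1 (−2.10) at the lower end.

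Replicate 1 of the fl/fl tumors decided the tumor comparison between genotypes. Its Zfp36 level, 231 CPM, was that of a fl/fl library (177 and 242 CPM in replicates 2 and 3). It had the lowest total of the 17 libraries, 2808550 counts. It also had the fewest genes with a count, 19219 against 23339 or more in every other library. The part of this depth in its levels was not tested. For the members it was far from the other libraries of its group: against their mean it held 36.8 times the Gsta4 level, 11.8 times that of Gpx2, 6.29 times that of Gsto1, 4.06 times that of Nqo1, 3.96 times that of Gsr, 3.65 times that of Txn1, 3.59 times that of Akr1b8 and 2.43 times that of Gpx1, and 0.176 of the Gpx8 level, 0.234 of Me1, 0.255 of Srxn1 and 0.308 of Cbr1. It was over 2-fold above both others for 8 of 41 members (19.5%), against 6.23% of all genes, and over 2-fold below both for 4 (9.76%), against 13.2% of all genes. It lay nearer to the ΔEP tumor mean than to the other fl/fl tumors for 73.2% of members and 67% of all genes.

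Without replicate 1, 14 members were called between the genotypes, with 16.9% of all genes called. Higher in ΔEP tumors were Gsta4 (4.05 ± 0.27, adjusted p = 2.1e-05), Gpx2 (3.04 ± 0.39, 0.000667), Gsto1 (2.42 ± 0.20, 6.9e-05), Gsr (2.06 ± 0.19, 0.000139), Akr1b8 (1.92 ± 0.25, 0.000811), Nqo1 (1.42 ± 0.36, 0.0191) and Gpx1 (1.26 ± 0.18, 0.00112). Lower were Me1 (−2.10 ± 0.23, 0.00031), Gstt3 (−1.98 ± 0.47, 0.014), Srxn1 (−1.59 ± 0.29, 0.00387), Gstz1 (−1.54 ± 0.27, 0.00364), Cbr1 (−1.40 ± 0.26, 0.00426), Gstm5 (−1.23 ± 0.25, 0.00656) and Cat (−1.08 ± 0.28, 0.0195). In this fit the fl/fl group has 2 libraries, and the labels give no ground for leaving out replicate 1.

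Markers of other epidermal cells differed between the same libraries. The 5 sebaceous gland markers (Scd1, Mc5r, Elovl3, Awat2 and Soat1) summed to 221 CPM in fl/fl tumor replicate 1, to 3870 and 7270 CPM in replicates 2 and 3, to 218, 187 and 253 CPM in the ΔEP tumors and to 336 to 691 CPM in skin, with Mc5r at 0 in all ΔEP tumors. Scd1, a fatty acid desaturase, ran from 196 to 6080 CPM in the fl/fl tumors and was the largest part of the sum. Me1, Srxn1, Cbr1, Cat and Gstz1 were likewise highest in fl/fl tumor replicates 2 and 3 among the tumors. The summed keratinocyte markers ran the other way. They stood at 30000 CPM in replicate 1, 8330 and 9960 CPM in replicates 2 and 3 and 23700 to 24000 CPM in the ΔEP tumors. Krt14 and Krt5 were the largest parts of that sum, at 3870 to 15700 and 2620 to 12100 CPM in the fl/fl tumors. Trp63 stood at 487 to 610 CPM in fl/fl and 479 to 691 CPM in ΔEP tumors, and Krt10 at 253 to 932 and 359 to 580 CPM. Krt1 stood at 514 to 1220 and 1090 to 1930 CPM, and Epcam at 176 to 466 and 190 to 417 CPM. Replicates 2 and 3 of the fl/fl tumors were lowest in the sum, as they were in Gsta4, Gsto1 and Gpx2. The part of these cell markers in the members' levels was not tested, and in sorted bulk samples a changed share of a cell type and a changed level per cell cannot be told apart.

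**Figure D5:**
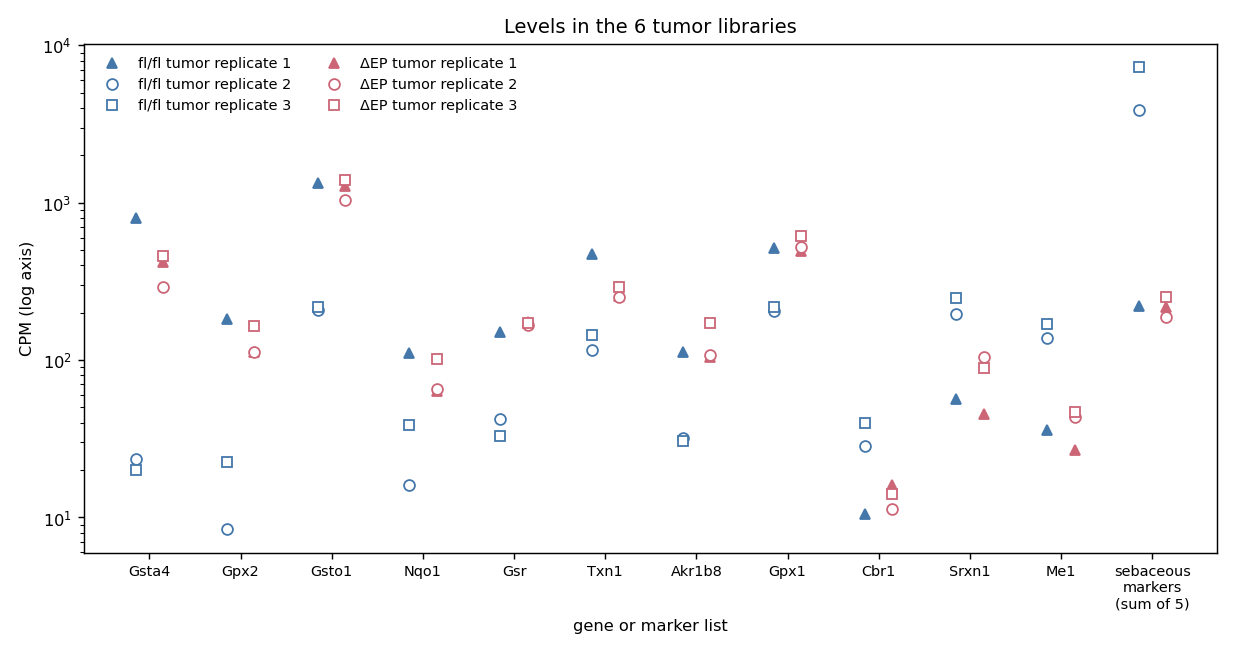
CPM on a log axis of 11 members and of the summed 5 sebaceous gland markers in the 6 tumor libraries, with blue for fl/fl, red for ΔEP and symbols for the replicate number. The sebaceous sum is 3870 and 7270 in fl/fl replicates 2 and 3 and 187 to 253 in the other 4 tumors, and Gsta4, Gpx2 and Gsto1 separate the same libraries in the opposite direction.

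Whether a stage change differed between the genotypes was tested directly as a difference of differences. For treated against mock skin 0 of 41 members were called, 1 member and 1.45% of all genes had an unadjusted p under 0.05, and 0% of all genes were called. Gstk1 gave −0.79 ± 0.35, Gsta3 −2.75 ± 1.36, Gstm4 −0.83 ± 0.49, Cbr1 −0.62 ± 0.39, Cbr3 1.28 ± 1.05, Nfe2l2 −0.01 ± 0.29 and Keap1 0.15 ± 0.38, all with an adjusted p of 1. For tumors against mock skin 0 of 41 were called, and 0 members and 8.18% of all genes had an unadjusted p under 0.05, with 0% of all genes called. There Gstz1 gave −1.07 ± 0.50 (adjusted p = 0.624), Gstm5 −0.82 ± 0.41 (0.651), Cbr1 −1.21 ± 0.61 (0.651), Gstt3 −1.87 ± 1.07 (0.716), Gstm2 −1.01 ± 0.65 (0.772), Nfe2l2 0.45 ± 0.36 (0.825) and Keap1 0.62 ± 0.46 (0.815). DESeq2 and edgeR called none of the members in either of these.

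For tumors against treated skin 0 of 39 members were called, 5 members and 13.2% of all genes had an unadjusted p under 0.05, and 0.0118% of all genes were called, while DESeq2 called 1 member, Gstm5. The share of all genes that DESeq2 called is not given here. Gstm5 gave −1.05 ± 0.28 (adjusted p = 0.207), Sod2 −0.73 ± 0.23 (0.247), Gstz1 −1.01 ± 0.42 (0.326), Me1 −1.75 ± 0.74 (0.341) and Srxn1 −1.70 ± 0.74 (0.354), each with the lower tumor change in ΔEP, and Nfe2l2 gave 0.45 ± 0.23 (0.426) and Keap1 0.47 ± 0.36 (0.609). Without fl/fl tumor replicate 1, 9 members were called, with 7.53% of all genes called. The tumor change was then larger in ΔEP for Gsta4 (3.39 ± 0.56, adjusted p = 0.00491), Gpx2 (2.83 ± 0.67, 0.0256), Gsto1 (1.95 ± 0.38, 0.0101), Gsr (1.78 ± 0.38, 0.0159) and Gpx1 (1.11 ± 0.28, 0.032). It was lower in ΔEP for Me1 (−2.16 ± 0.57, 0.039), Srxn1 (−2.10 ± 0.56, 0.0405), Gstz1 (−1.27 ± 0.32, 0.032) and Gstm5 (−1.17 ± 0.25, 0.0182).

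The 5 members tested in no comparison had at most 13 counts in any library. Gstt1 ran from 0 to 9 counts, Gstt2 from 0 to 13, Gstm3 from 0 to 7, Gpx7 from 0 to 11 and Gsta1 from 0 to 10, and no difference in them was detectable at this depth. For Gsta1, 90.5% of the transcript's 50-base words also occur in other genes, so its reads cannot be assigned with confidence. No member was at 0 in all libraries.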

How the data were processed

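The authors deposited 1 table of raw read counts by gene, from Ovation SoLo libraries sequenced on an Illumina HiSeq. The submitters' processing notes name mm10, Trimmomatic 0.36, STAR 2.5.3, HTSeq 0.9.1 and DESeq2, and the study's methods name edgeR. Annotation release, strand setting and duplicate removal are not given in the sources used here. The deposited tables of the authors' own comparisons hold fold changes and p-values and were not used.

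Genes were matched to GENCODE annotation of GRCm38 for positions and exon lengths (52403 of 52636 identifiers). Each comparison was fitted on its own groups with edgeR 4.0.16 in R 4.3.3 (filterByExpr, TMM scaling, quasi-likelihood F test, two-sided, Benjamini-Hochberg over all genes tested), and a call needs an adjusted p under 0.05 and a fold over 2. Differences of differences were fitted over 4 groups. CPM use TMM sizes over all 17 libraries and the 18252 genes that pass the filter over 6 groups. Where no library of a group exceeds 3 counts, the fold is given as a bound against 3 counts per library. The fitting was tested on simulated data. Alternatives were the replicate number as a block, each library left out, RLE scaling, a fit that pools all 17 libraries, DESeq2 1.42.0, edgeR's exact test, no filter, a filter on a mean count of 10, mock replicate 1 of both genotypes left out together, and the identical columns counted separately. Total counts per library (2808550 to 9617985) set the precision for low genes. Nothing states that samples came from separate mice, so p-values measure the spread between these samples, which may be technical in part.

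In each comparison the text names Nfe2l2 and Keap1, the members called, with up to 12 in each direction by smallest p first, and the 5 members with the smallest p where fewer than 5 were called. From the wider list it names up to 4 called genes in each direction and their values in the other comparisons. The members, the wider list and the marker lists were chosen with earlier results of these data known.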

Additional observations from a re-analysis of the deposited data

How the results depend on the processing

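Counts of members called moved by over 1.5 times in some settings. In fl/fl tumors against mock skin 7 were called as reported, 11 by DESeq2, 12 by edgeR's exact test, 14 in a single fit of all libraries, 13 with no low-count filter and 17 without mock replicate 1 of each genotype, and leaving out 1 library each gave 1 to 17. Leaving out 1 library gave 7 to 16 in fl/fl tumors against treated skin and 5 to 21 in ΔEP tumors against mock skin, where the replicate block gave 10. For treated against mock skin in fl/fl, DESeq2, the exact test and no filter each gave 1 (Gpx2), leaving out 1 library 0 to 8, and leaving out mock replicate 1 of each genotype 8; in ΔEP no filter gave 2. For the genotype difference in tumors DESeq2 and the exact test gave 2, no filter 6 and leaving out 1 library 0 to 14. The difference of differences gave 0 to 1 for tumors against mock skin on leaving out 1 library, and for tumors against treated skin 1 by DESeq2, 2 with no filter and 0 to 9 on leaving out 1 library. The cause was not tested. For the other tools, filters and scalings, the single fit and the block, the shares of all genes called are not given here. A change in the members under these settings therefore cannot be told apart from a general change in calls.

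Of 1511 alternatives for 105 results other than counts of calls, 1381 kept direction and side of the threshold, 79 lost the call, 28 gained one and 22 changed sign, all in differences that were not called, and 1, the number of members with the promoter letters, went from 11 to 4 with A or G required before them. Leaving out 1 library gave −0.60 to 0.01 for Keap1 and −0.12 to 0.86 for Gpx1 between genotypes in mock skin, −0.35 to 0.04 for Keap1 in treated skin, and −0.32 to 0.31 for Keap1 and −2.43 to 0.12 for Gstt3 in treated against mock ΔEP skin, where no filter gave 0.05 for Keap1. In the difference of differences for treated against mock skin it gave −0.26 to 0.28 for Nfe2l2 and −0.10 to 0.46 for Keap1. There Nfe2l2 gave 0.01 in the single fit, 0.09 with no filter, 0.25 without mock replicate 1 of each genotype and 0.08 with the identical columns counted separately.

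Replicate numbers are shared across groups without a stated pairing. The deviations of same-numbered libraries correlated at −0.074 to 0.272 between the tumor groups and −0.585 to −0.134 between the treated groups. All 3 pairs of mock fl/fl with treated ΔEP, fitted together only in a difference of differences, gave 0.172 to 0.691. The 2 pairs of mock ΔEP gave 0.609 to 0.811 with mock fl/fl, 0.141 to 0.605 with treated ΔEP and 0.109 to 0.139 with tumor ΔEP. With the replicate number as a block 5 members were called in fl/fl tumors against mock skin, 15 against treated skin, 22 in ΔEP tumors against treated skin, and 0 in the comparisons with 0 above. The shares of all genes called in these block fits are not given here. The block moved Keap1 to −0.01 in the difference of differences for treated against mock skin.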
